A study of Mus musculus with 18 samples.

Results

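The 10 genes described here encode channels and G protein subunits that have been proposed to sense the drag of flowing blood on the cells that line vessels, or to pass that signal on. They are the Piezo channels Piezo1 and Piezo2, the polycystins Pkd1 and Pkd2, the Trp channels Trpv4 and Trpc1, the purinergic receptor P2rx4, the potassium channel Kcnj2, and the alpha subunits of Gq and G11, Gnaq and Gna11. They were taken by symbol, with earlier results of these data known, and each of the 10 was found as 1 row among the 21647 genes of the count table. All 10 entered the test with 13058 genes in total, but Kcnj2 passed the filter on low counts through orpk libraries alone, since 0 of 9 WT libraries exceeded its level of 0.6375 CPM, the usual unit of counts scaled to library size. RNA was sequenced from cultured mouse cells labelled as endothelial cells of the embryonic aorta, either wild type (WT) or Tg737orpk/orpk (orpk), which carries an insertion mutation in Ift88. The cells of both genotypes were grown to confluence on gelatin-coated slides and were serum starved for 24 h. They were then kept static or exposed to laminar shear of 2 or 30 dyn/cm² for 48 h. This gave 6 groups with 3 libraries each, and the labels do not say whether these came from separate isolations or how many animals gave the cells, so culture and genotype cannot be told apart.

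Piezo1 and Piezo2 are large cation channels that open when the membrane is stretched, and endothelial Piezo1 is known for letting calcium in under shear. Polycystin 1 and polycystin 2, the products of Pkd1 and Pkd2, form a receptor and channel complex found on the primary cilium, a thin antenna that needs the transport protein Ift88 for its assembly, and mutations in either gene cause polycystic kidney disease. Trpv4 and Trpc1 encode calcium-permeable channels, P2rx4 a channel opened by ATP that endothelial cells release under flow, and Kcnj2 the inward rectifier Kir2.1, whose current in endothelium grows with shear. Gq and G11 couple receptors to phospholipase C beta, which raises inositol trisphosphate and releases stored calcium.

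Library totals ran from 13626480 to 17387553 counts, and the first principal component, with 90.1% of the variance, separated the genotypes. At 2 dyn/cm², WT replicate 1 stood apart from the other WT libraries (6.35 and 7.76 units of chi-square for each degree of freedom, where the others gave 1.44 between them), as did orpk replicate 2 in its group (3.40 and 3.80, against 1.58). Ift88 was lower in all 9 orpk libraries, at 85 to 132 reads against 205 to 278 in WT, which goes with the labels. Defining endothelial markers were scarce: Cldn5, Robo4, Tie1 and Emcn had 1, 1, 3 and 10 reads over all 18 libraries, Cdh5 and Erg had none in the 9 WT libraries, Pecam1 averaged 0.563 CPM and Flt1 62.2 CPM. The summed level of 14 endothelial markers was 54.8 to 56.1 CPM in static WT and 109.7 to 112.3 CPM in static orpk libraries. Most of this sum was Flt1, at a mean of 40.3 CPM in static WT and 93.6 CPM in static orpk libraries. Of the 10 endothelial markers tested, 7 were higher in orpk and 3 lower, where 44.4% and 43.4% of all tested genes were. Cdh5 and Erg, without WT reads, could only come out higher. All 8 fibroblast markers were higher in static orpk cells (summed 31587 to 32581 CPM against 981 to 1047), as were all 6 tested markers of smooth muscle and pericytes (1506 to 1631 against 51.9 to 54.9). Of 8 epithelial markers the 6 tested were all lower, with sums of 92.5 to 102.6 CPM in orpk and 464 to 471 in WT. The shares over all tested genes, 44.4% higher and 43.4% lower, stand beside these counts too. Untested for want of reads were Myh11 and Rgs5 of smooth muscle and pericytes, with 60 and 22 reads over all 18 libraries. So were the epithelial Cdh1 and Cldn7, with 34 and 7 reads. In static and 2 dyn/cm² WT cells, 4 of the 10 endothelial and 2 of the 8 fibroblast markers had at most 3 reads per group. So had 3 of the 6 epithelial markers in those groups of orpk. Markers this scarce in 1 genotype could hardly count in the other direction. Marker sums also differed with shear. The endothelial sum in WT was 27.3 to 30.4 CPM at 30 dyn/cm², and in orpk 138.2 to 142.3 CPM. Smooth muscle markers stood at 121 to 134 CPM in WT and 4333 to 4430 CPM in orpk at that shear, and the epithelial sum in orpk at 17.36 to 20.14 CPM. Most of that epithelial sum was the keratin Krt19, whose lowest level in any library was 15.5 CPM. The sum of 7 leukocyte markers, of which 2 were tested, was 43.6 to 50.1 CPM in static WT and 11.8703 to 13.0001 CPM at 30 dyn/cm², and in orpk 12.7 to 15.2 and 5.42 to 6.07 CPM. The sum of 6 neural markers, of which 2 were tested, was 53.6 to 55.7 and 98.3 to 106.2 CPM in WT, and 20.7 to 22.3 and 76.9 to 83.4 CPM in orpk. The part of these differences in the results for the 10 genes was not tested. In such bulk RNA, fewer cells of a type and less RNA per cell cannot be told apart.

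The genotypes differed most in Trpv4 and Kcnj2, each nearly absent from 1 of them, while Piezo1 and Pkd1 were higher in orpk cells and gained further with shear there. Gnaq fell under 30 dyn/cm² in WT cells and rose in orpk cells. Differences between genotypes passed an adjusted p of 0.05 for 10 of the 10 genes in static culture (5 higher and 5 lower in orpk), 9 at 2 dyn/cm² (6 and 3) and 8 at 30 dyn/cm² (6 and 2). With library totals in place of TMM scaling the splits under flow were 5 and 4, then 6 and 3. Among all tested genes 87.8% passed in static culture (44.4% higher, 43.4% lower), 87.5% at 2 dyn/cm² (44.6% and 42.9%) and 86.9% at 30 dyn/cm² (44.9% and 42.0%). The counts are near this background, and Kcnj2 could enter them only by being high in orpk. In WT cells 6 of 10 changed at 2 dyn/cm² against static (1 higher, 5 lower), where 62.9% of all genes did (32.6% higher, 30.3% lower), and 8 at 30 dyn/cm² (3 higher, 5 lower), where 66.9% did (34.1% and 32.7%). With library totals the split at 2 dyn/cm² was 3 higher and 4 lower, and without WT replicate 1 it was 2 and 4. In orpk cells 8 changed at 2 dyn/cm² (5 higher, 3 lower), where 62.0% of all genes did (30.9% and 31.1%), and 7 at 30 dyn/cm² (5 higher, 2 lower), where 69.9% did (36.5% and 33.3%). From 2 to 30 dyn/cm², 5 of 10 changed in WT (2 higher, 3 lower), against 33.0% of all genes (15.9% and 17.2%). In orpk 8 changed over that step (7 higher, 1 lower), against 63.6% (32.1% and 31.5%). This orpk split was 6 higher and 2 lower with library totals, 6 and 1 without replicate 2 of the 2 dyn/cm² group, and 5 and 1 without replicate 2 of the 30 dyn/cm² group.

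**Figure D1:**
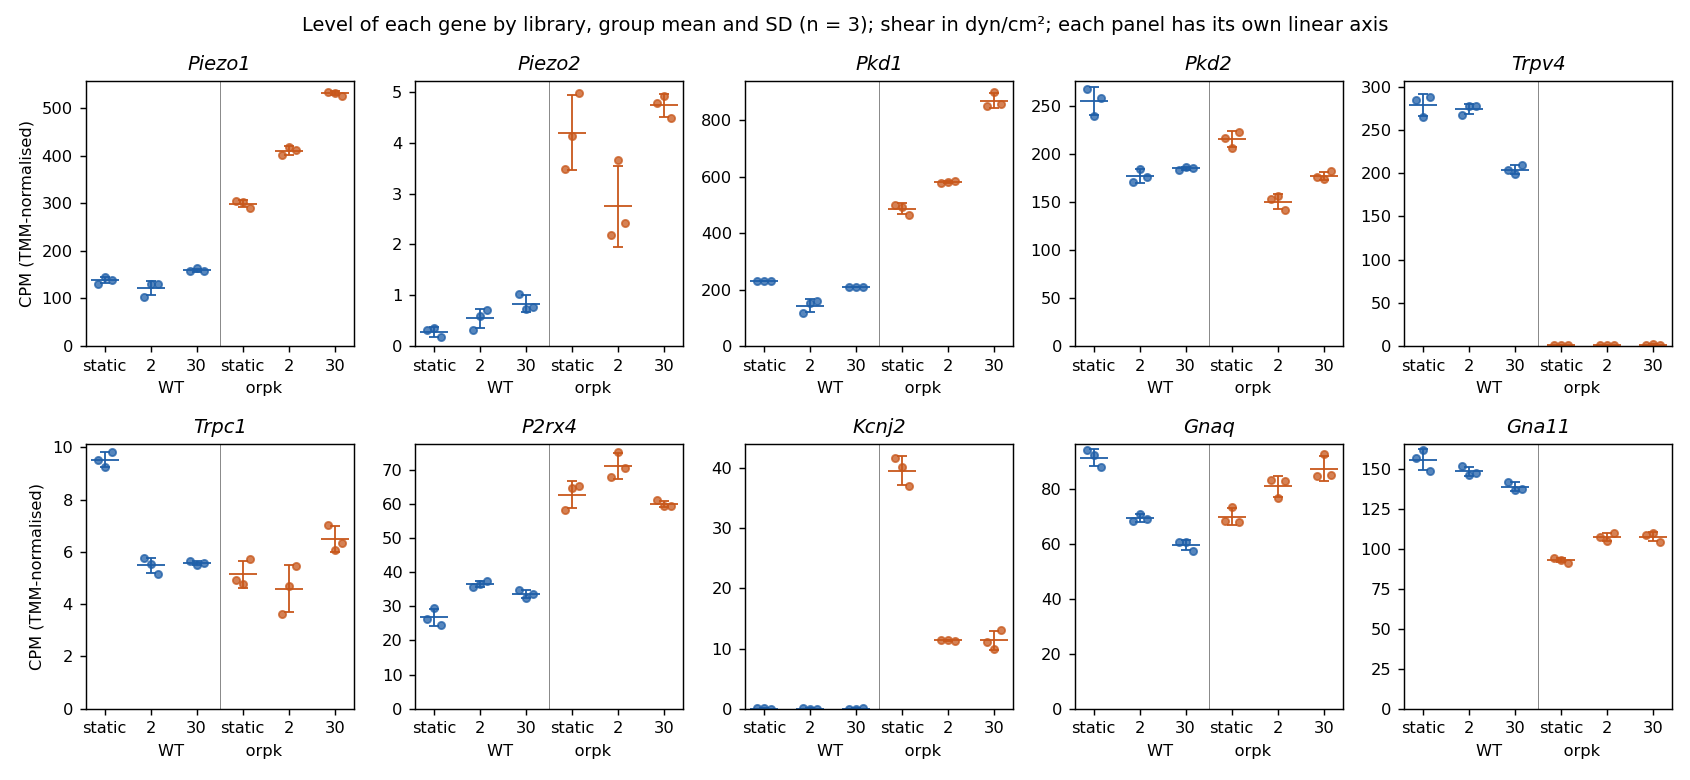
Level of each gene in TMM-normalised CPM (linear axis per panel) in each library, by genotype and shear; points are libraries, bars the group mean and SD (n = 3). Trpv4 is at 199 to 289 CPM in WT and at 2.21 CPM or less in orpk libraries, Kcnj2 is at or near 0 in WT, and the orpk libraries of Piezo1 and Pkd1 all lie above the WT ones.

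Piezo1 was 2.16-fold higher in orpk than in WT cells in static culture, and the gap was wider under flow. Piezo1 (ENSMUSG00000014444, chromosome 8, 122481698 to 122551329 on the minus strand of GRCm38, protein coding) held 131, 144 and 139.6 CPM in the static WT libraries, 104, 131 and 129.8 CPM at 2 dyn/cm² and 157, 163 and 157 CPM at 30 dyn/cm². The orpk libraries held 304, 302 and 290.4 CPM static, 401, 418 and 412 CPM at 2 dyn/cm² and 534, 532 and 526 CPM at 30 dyn/cm². In orpk cells no group overlapped another and each step of shear stood above the last, whereas the WT static and 2 dyn/cm² libraries overlapped. The orpk rise was 1.78-fold from static to 30 dyn/cm², from 299 ± 7.36 to 531 ± 4.27 CPM (SD, n = 3 here and in every group; log2 fold change 0.83 ± 0.05 SE, edgeR adjusted p = 6.15e-13). The same step in WT was 1.15-fold, from 138 ± 6.68 to 159 ± 3.33 CPM (log2 0.20 ± 0.06, adjusted p = 0.00314). Between static and 2 dyn/cm², Piezo1 rose in orpk (0.46 ± 0.05, adjusted p = 5.13e-08). In WT it fell by 0.19 on the log2 scale (± 0.06, adjusted p = 0.00683), a call that was lost without WT replicate 1 at 2 dyn/cm² (-0.08, adjusted p = 0.0537), with the 2 groups fitted alone (adjusted p = 0.0675) and with library totals as the scaling (-0.08, adjusted p = 0.229). Piezo1 rose by 0.39 ± 0.06 in WT and by 0.37 ± 0.05 in orpk from 2 to 30 dyn/cm². The log2 difference between genotypes was 1.11 ± 0.06 in static culture, 1.76 ± 0.05 at 2 and 1.74 ± 0.05 at 30 dyn/cm².

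Piezo2 (ENSMUSG00000041482, chromosome 18, 63010213 to 63387183, minus strand), the Piezo channel best known from touch neurons, was scarce in both genotypes. WT libraries had 3 to 17 reads each and orpk libraries 33 to 69. In static culture it was at 0.326, 0.350 and 0.172 CPM in WT and at 3.49, 4.13 and 4.98 CPM in orpk, which do not overlap. Piezo2 was higher in orpk at each shear (log2 3.88 ± 0.31, 2.34 ± 0.27 and 2.50 ± 0.23 in static culture and at 2 and 30 dyn/cm²). In WT it rose from 13 reads over the static libraries to 44 at 30 dyn/cm² (log2 1.56 ± 0.43, adjusted p = 0.00167). At 2 dyn/cm² the WT value of 0.95 ± 0.48 did not pass (adjusted p = 0.0819), but did without WT replicate 1 of that group (1.22, adjusted p = 0.0300) and with library totals (1.06, adjusted p = 0.0485). In orpk it fell by 0.59 at 2 dyn/cm² (± 0.18, adjusted p = 0.00427), with overlapping libraries, and was at 0.18 ± 0.17 at 30 dyn/cm² against static (adjusted p = 0.350). Per kb of exon, Piezo1 stood 101-fold to 150-fold above Piezo2 in the static orpk libraries and 695-fold to 1399-fold above it in the static WT libraries.

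Pkd1 followed the pattern of Piezo1 in orpk cells and dipped at low shear in WT cells. Pkd1 (ENSMUSG00000032855, chromosome 17, 24549834 to 24596508, plus strand) held 231 CPM in each of the 3 static WT libraries, 116, 151 and 160.5 CPM at 2 dyn/cm² and 210.3, 209 and 207 CPM at 30 dyn/cm². In orpk cells it held 501, 493 and 464 CPM static, 577, 580.0 and 583 CPM at 2 dyn/cm² and 849.9, 899 and 858 CPM at 30 dyn/cm². None of the 6 groups overlapped. WT replicate 1 at 2 dyn/cm², the library that stood apart, was the lowest of its group. In WT Pkd1 fell 1.62-fold at 2 dyn/cm² (log2 -0.70 ± 0.08, edgeR adjusted p = 2.21e-06; -0.57 without replicate 1). At 30 dyn/cm² it lay 1.11-fold under static and missed the threshold (-0.14 ± 0.08, adjusted p = 0.120), but passed it with no filter (adjusted p = 0.000974) and with the compared groups fitted alone (5.65e-06). In orpk it rose 1.19-fold at 2 dyn/cm² (0.26 ± 0.07, adjusted p = 0.00794) and 1.79-fold at 30 dyn/cm² (0.84 ± 0.07, adjusted p = 8.27e-08). It rose from 2 to 30 dyn/cm² in both genotypes (0.55 ± 0.08 in WT, 0.58 ± 0.07 in orpk). Orpk exceeded WT 2.10-fold in static culture, 4.07-fold at 2 and 4.16-fold at 30 dyn/cm² (log2 1.07 ± 0.08, 2.03 ± 0.08 and 2.06 ± 0.08).

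Pkd2 was lower under flow than in static culture in both genotypes. Pkd2 (ENSMUSG00000034462, chromosome 5, 104459450 to 104505819, plus strand) held 268, 239.7 and 259 CPM in static WT libraries, and 171 to 187 CPM in the 6 WT libraries under flow. In orpk cells it held 217, 207 and 224 CPM static, 153, 157 and 142 CPM at 2 dyn/cm² and 176, 174 and 183 CPM at 30 dyn/cm². In each genotype every static library lay above every library under flow. Pkd2 fell by 0.53 ± 0.04 and 0.46 ± 0.04 on the log2 scale at 2 and 30 dyn/cm² in WT, and by 0.52 ± 0.04 and 0.28 ± 0.04 in orpk (adjusted p of 1.54e-07 or lower in each). Between 2 and 30 dyn/cm² Pkd2 rose in orpk (0.24 ± 0.04), where the WT value was 0.06 ± 0.04 (adjusted p = 0.251). It was 1.18-fold lower in orpk in static culture (log2 -0.25 ± 0.04) and at 2 dyn/cm² (-0.24 ± 0.04). At 30 dyn/cm² the difference of -0.06 ± 0.04 did not pass (adjusted p = 0.157), though the libraries did not overlap. It passed with the 2 groups fitted alone (-0.07, adjusted p = 0.0157) and with library totals (-0.38, adjusted p = 2.53e-11). Per kb of exon, the ratio of Pkd1 to Pkd2 was 0.529 ± 0.031 in static WT, 0.468 ± 0.068 at 2 and 0.658 ± 0.009 at 30 dyn/cm². In orpk it was 1.32 ± 0.09, 2.25 ± 0.12 and 2.86 ± 0.14. By this measure Pkd1 stood below Pkd2 in every WT group and above it in every orpk group. The lengths used, 17415 nt for Pkd1 and 10169 nt for Pkd2, join the exons of all transcripts. Which transcripts the cells used was not tested, so the ratio cannot settle which polycystin RNA was more abundant.

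Piezo1 shares 2441 nt of exon with Ctu2 and Pkd1 shares 693 nt with Tsc2, each on the opposite strand. The libraries were stranded, but the strand setting of the counting is not given in the sources used here. Reads over the shared bases could therefore have been left out, or reads of the neighbour included. Reads left out would lower the level of Piezo1 or Pkd1, also per kb. Neither was tested. Ctu2 was lower in orpk (log2 -0.60, -0.73 and -0.53 in static culture and at 2 and 30 dyn/cm²), opposite in sign to Piezo1. Tsc2 was higher by 0.43, 0.39 and 0.22, less than Pkd1, and fell by 0.25 in orpk at 30 dyn/cm² against static, where Pkd1 rose.

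Trpv4 and Kcnj2 had the widest differences between genotypes of the 10 genes, and the 250 bases before their RefSeq starts are shown because they lie at the genes whose RNA was nearly absent from 1 genotype. RefSeq's table on GRCm38.p6 held 9 of the 10 genes. The Trpv4 window is chr5:114658422-114658671 on the minus strand and the Kcnj2 window chr11:111065914-111066163 on the plus strand, both written 5′ to 3′. Capitals mark GC boxes (GGGCGG or CCGCCC) and the core of hypoxia response elements (ACGTG or CACGT), searched on both strands.
Trpv4: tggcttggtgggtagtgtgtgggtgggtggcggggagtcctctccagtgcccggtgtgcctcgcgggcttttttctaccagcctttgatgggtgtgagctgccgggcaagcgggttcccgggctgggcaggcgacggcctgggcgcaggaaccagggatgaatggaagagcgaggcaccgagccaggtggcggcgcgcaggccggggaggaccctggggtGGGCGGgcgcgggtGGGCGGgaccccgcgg
Kcnj2: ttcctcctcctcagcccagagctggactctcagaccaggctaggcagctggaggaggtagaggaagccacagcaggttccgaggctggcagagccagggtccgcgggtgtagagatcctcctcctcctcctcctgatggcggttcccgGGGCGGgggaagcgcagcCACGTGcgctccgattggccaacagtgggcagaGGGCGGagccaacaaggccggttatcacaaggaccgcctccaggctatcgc
Both windows hold 2 GC boxes, a motif found in 32.7% of 32851 promoter windows of this length. Kcnj2 has 2 matches to the hypoxia core, which overlap in CACGTG, and Trpv4 has 0, where 16.6% of windows hold one or more. The KLF core (CACCC or GGGTG, not in capitals) occurs 5 times before Trpv4 and 1 time before Kcnj2, and in 52.0% of windows. Neither window holds the TEAD core (GGAATG or CATTCC, 12.6% of windows) or a TATA box (TATAAA or TTTATA, 12.4%). These are matches of letters, and binding was not measured.

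Trpv4 was abundant in WT cells and close to absent in orpk cells. Trpv4 (ENSMUSG00000014158, chromosome 5, 114622152 to 114658421, minus strand) held 284, 265 and 289 CPM in static WT libraries, 267, 277 and 278 CPM at 2 dyn/cm² and 204, 199 and 209 CPM at 30 dyn/cm². The orpk libraries held 1.43, 1.16 and 1.68 CPM static, 0.992, 1.20 and 1.11 CPM at 2 dyn/cm² and 1.65, 2.21 and 1.63 CPM at 30 dyn/cm², from 15 to 31 reads each. Every WT library lay above every orpk library. From the summed reads, WT exceeded orpk 198-fold in static culture (95% exact counting interval 154 to 259), 248-fold at 2 dyn/cm² (189 to 331) and 111-fold at 30 dyn/cm² (88.3 to 141), with intervals that cover counting error only. In WT cells Trpv4 fell 1.37-fold at 30 dyn/cm² against static (log2 -0.45 ± 0.04, edgeR adjusted p = 2.96e-14). At 2 dyn/cm² its WT value was -0.03 ± 0.04 (adjusted p = 0.519), but 0.08 with library totals (adjusted p = 0.0431). In orpk cells the change at 30 dyn/cm² was 0.38 ± 0.22 (adjusted p = 0.164). The step from 2 to 30 dyn/cm² passed there (0.73 ± 0.23, adjusted p = 0.00819), but not without orpk replicate 2 at 30 dyn/cm² (0.56, adjusted p = 0.0911).

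Trpc1, a subunit of calcium-permeable Trp channels, fell under flow in WT cells. Trpc1 (ENSMUSG00000032839, chromosome 9, 95705082 to 95750375, minus strand) held 9.53, 9.23 and 9.82 CPM in static WT libraries and 5.15 to 5.76 CPM in the 6 WT libraries under flow, with no overlap. In orpk cells Trpc1 stood at 4.92, 4.78 and 5.71 CPM static, 3.64, 4.69 and 5.44 CPM at 2 dyn/cm² and 7.04, 6.07 and 6.35 CPM at 30 dyn/cm². In WT it fell by 0.80 ± 0.11 on the log2 scale at 2 and by 0.78 ± 0.11 at 30 dyn/cm² (adjusted p = 5.59e-08 and 7.70e-08). In orpk it rose by 0.34 ± 0.13 at 30 dyn/cm² (adjusted p = 0.0224), a call that was lost with DESeq2 (adjusted p = 0.0877) and without orpk static replicate 1 or 2 or replicate 1 at 30 dyn/cm² (adjusted p = 0.0633, 0.0898 and 0.103). Trpc1 also rose in orpk from 2 to 30 dyn/cm² (0.49 ± 0.13, adjusted p = 0.00143). In static culture orpk was 1.86-fold lower than WT (log2 -0.90 ± 0.12, adjusted p = 6.21e-09). The differences at 2 and 30 dyn/cm² were -0.25 ± 0.13 and 0.22 ± 0.13 and did not pass (adjusted p = 0.0717 and 0.0968). With library totals these were -0.47, which passed (adjusted p = 0.00104), and -0.09. The difference at 2 dyn/cm² also passed without orpk replicate 3 of that shear (-0.38, adjusted p = 0.0151).

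P2rx4 was higher in orpk cells throughout, and rose under flow in WT cells. P2rx4 (ENSMUSG00000029470, chromosome 5, 122707544 to 122729738, plus strand) held 26.3, 29.5 and 24.5 CPM in static WT libraries, 35.7, 36.6 and 37.3 CPM at 2 dyn/cm² and 34.9, 32.6 and 33.5 CPM at 30 dyn/cm². The orpk values were 58.1, 64.5 and 65.3 CPM static, 67.8, 75.03 and 70.3 CPM at 2 dyn/cm² and 61.0, 59.3 and 59.4 CPM at 30 dyn/cm². All orpk libraries lay above all WT libraries, and the WT groups did not overlap each other. The rise in WT was 1.37-fold at 2 dyn/cm² (log2 0.46 ± 0.06, adjusted p = 3.99e-08) and 1.26-fold at 30 dyn/cm² (0.33 ± 0.06, adjusted p = 1.34e-05). In orpk it was 1.13-fold at 2 dyn/cm² (0.18 ± 0.05, adjusted p = 0.00219), and at 30 dyn/cm² the value was -0.06 ± 0.05 (adjusted p = 0.294). Between the shears P2rx4 fell in orpk (-0.25 ± 0.05, adjusted p = 7.84e-05), and the WT value was -0.12 ± 0.06 (adjusted p = 0.115). The log2 difference between genotypes was 1.23 ± 0.06, 0.96 ± 0.05 and 0.83 ± 0.06 in static culture and at 2 and 30 dyn/cm².

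Kcnj2 was read hardly at all in WT cells, and in orpk cells it was lower under flow than in static culture. Kcnj2 (ENSMUSG00000041695, chromosome 11, 111066164 to 111076821, plus strand) had 4 reads in total over the 9 WT libraries, at most 1 in any of them. The orpk libraries held 41.6, 40.1 and 37.0 CPM static, 11.5, 11.4 and 11.3 CPM at 2 dyn/cm² and 11.2, 9.93 and 13.02 CPM at 30 dyn/cm². Both flow groups lay below every static library and overlapped each other. In orpk Kcnj2 fell 3.47-fold at 2 dyn/cm², from 39.6 ± 2.38 to 11.4 ± 0.0917 CPM (log2 -1.79 ± 0.08, edgeR adjusted p = 3.53e-22), and 3.48-fold at 30 dyn/cm² (-1.80 ± 0.08, adjusted p = 4.43e-22). Between 2 and 30 dyn/cm² the value was -0.01 ± 0.10 (adjusted p = 0.937). From 1710 reads against 2, orpk exceeded WT 931-fold in static culture (95% exact counting interval 257 to 7695). The ratio was 611-fold at 2 dyn/cm² (109 to 24160) and 599-fold at 30 dyn/cm² (107 to 23700), each against 1 WT read. With 1 or 2 reads per WT group, the response of Kcnj2 to flow in WT was not detectable at this depth.

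**Figure D2:**
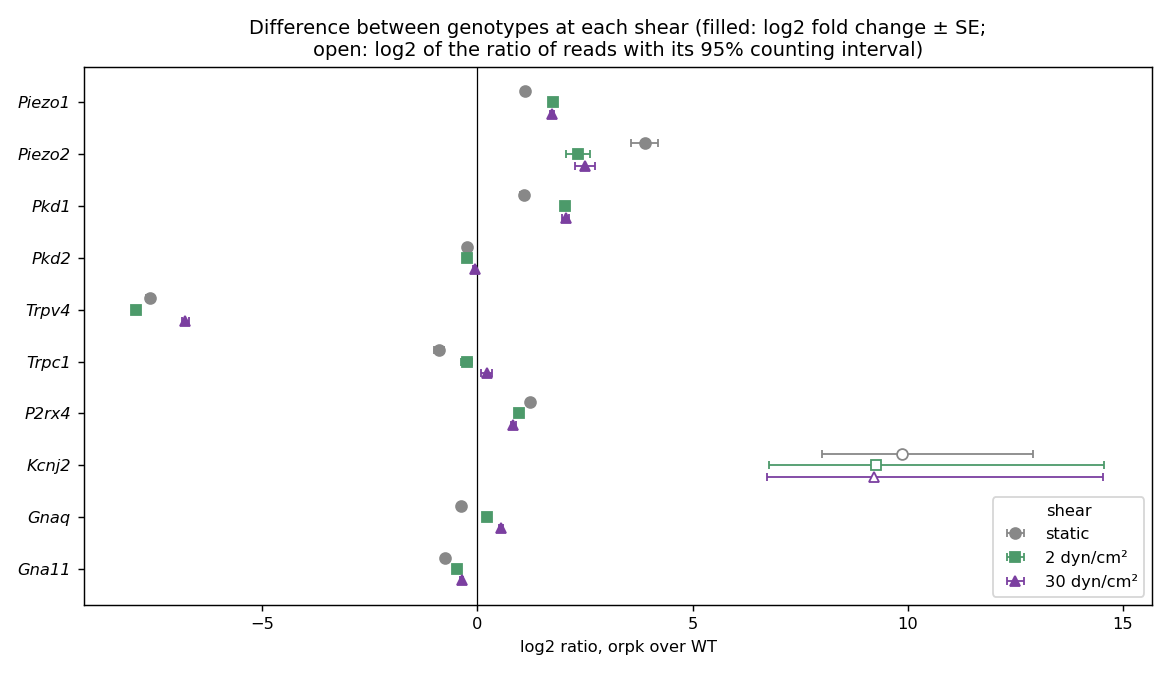
Log2 ratio of orpk over WT for each gene at static, 2 and 30 dyn/cm²; filled symbols are fitted log2 fold changes ± SE and open symbols (Kcnj2) the ratio of reads with its 95% counting interval. Trpv4 lies between -7.94 and -6.79, Kcnj2 above every other gene, and the symbols of Gnaq cross 0, at -0.38 in static culture and 0.55 at 30 dyn/cm²; with library totals Gnaq at 2 dyn/cm² (0.22) turns to -0.0017 and Trpc1 at 30 dyn/cm² (0.22) to -0.09.

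Gnaq fell with shear in WT cells and rose in orpk cells. Gnaq (ENSMUSG00000024639, chromosome 19, 16132831 to 16387463, plus strand) held 94.2, 92.3 and 88.0 CPM in static WT libraries, 68.5, 71.1 and 69.0 CPM at 2 dyn/cm² and 60.8, 60.8 and 57.4 CPM at 30 dyn/cm². Orpk libraries held 68.5, 73.4 and 68.1 CPM static, 83.4, 76.7 and 83.1 CPM at 2 dyn/cm² and 84.8, 92.7 and 85.0 CPM at 30 dyn/cm². Within a genotype no groups overlapped, and the static WT libraries shared their range only with orpk at 30 dyn/cm². In WT the fall was 1.32-fold at 2 dyn/cm² (log2 -0.39 ± 0.05, edgeR adjusted p = 7.85e-10) and 1.53-fold at 30 dyn/cm² (-0.62 ± 0.05, adjusted p = 4.60e-15). In orpk the rise was 1.16-fold (0.21 ± 0.05, adjusted p = 0.000199) and 1.25-fold (0.32 ± 0.05, adjusted p = 1.46e-07). From 2 to 30 dyn/cm² Gnaq fell by 0.22 ± 0.05 in WT (adjusted p = 0.000272), and the orpk value of 0.11 ± 0.05 (adjusted p = 0.0340) passed only in part of the settings. It was 0.10 with RLE factors and with DESeq2 (adjusted p = 0.0673 and 0.105), 0.07 without replicate 2 of either orpk flow group (adjusted p = 0.210 and 0.257) and -0.0033 with library totals (adjusted p = 0.959). Against WT, Gnaq in orpk was lower in static culture (-0.38 ± 0.05, adjusted p = 8.34e-10) and higher at 30 dyn/cm² (0.55 ± 0.05, adjusted p = 5.76e-14). At 2 dyn/cm² it was higher by 0.22 ± 0.05 (adjusted p = 3.54e-05), but at -0.0017 with library totals (adjusted p = 0.973).

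Gna11 was lower in orpk cells at every shear and rose there under flow. Gna11 (ENSMUSG00000034781, chromosome 10, 81528724 to 81545190, minus strand) held 157, 162 and 149 CPM in static WT libraries, 152, 146 and 147 CPM at 2 dyn/cm² and 142, 137 and 137 CPM at 30 dyn/cm². In orpk cells Gna11 held 94.1, 93.2 and 91.4 CPM static, 107, 105 and 109.9 CPM at 2 dyn/cm² and 109, 110.0 and 104 CPM at 30 dyn/cm². Every orpk library lay below every WT library. The log2 difference between genotypes was -0.74 ± 0.04 in static culture, -0.47 ± 0.04 at 2 and -0.37 ± 0.04 at 30 dyn/cm². In orpk Gna11 rose by 0.21 ± 0.04 at both shears (adjusted p = 2.34e-05 and 1.63e-05). In WT Gna11 fell by 0.17 ± 0.04 at 30 dyn/cm² (adjusted p = 0.000148), though not past the threshold with library totals (-0.08, adjusted p = 0.0679). At 2 dyn/cm² the WT value was -0.07 ± 0.04 (adjusted p = 0.115), and 0.04 with library totals. It passed as a fall with RLE factors (-0.088, adjusted p = 0.0371) and without WT static replicate 3 (-0.099, adjusted p = 0.0342). The WT step from 2 to 30 dyn/cm², -0.10 ± 0.04 (adjusted p = 0.0354), was lost with no filter, with DESeq2, with the 2 groups fitted alone, and without WT replicate 1 or 3 at 2 dyn/cm² or replicate 2 or 3 at 30 dyn/cm² (adjusted p of 0.0537 to 0.127). Per kb of exon, Gna11 exceeded Gnaq 2.57 ± 0.07-fold in static WT, 3.22 ± 0.12-fold at 2 and 3.51 ± 0.11-fold at 30 dyn/cm². In orpk these ratios were 2.01 ± 0.08, 2.00 ± 0.06 and 1.86 ± 0.07.

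**Figure D3:**
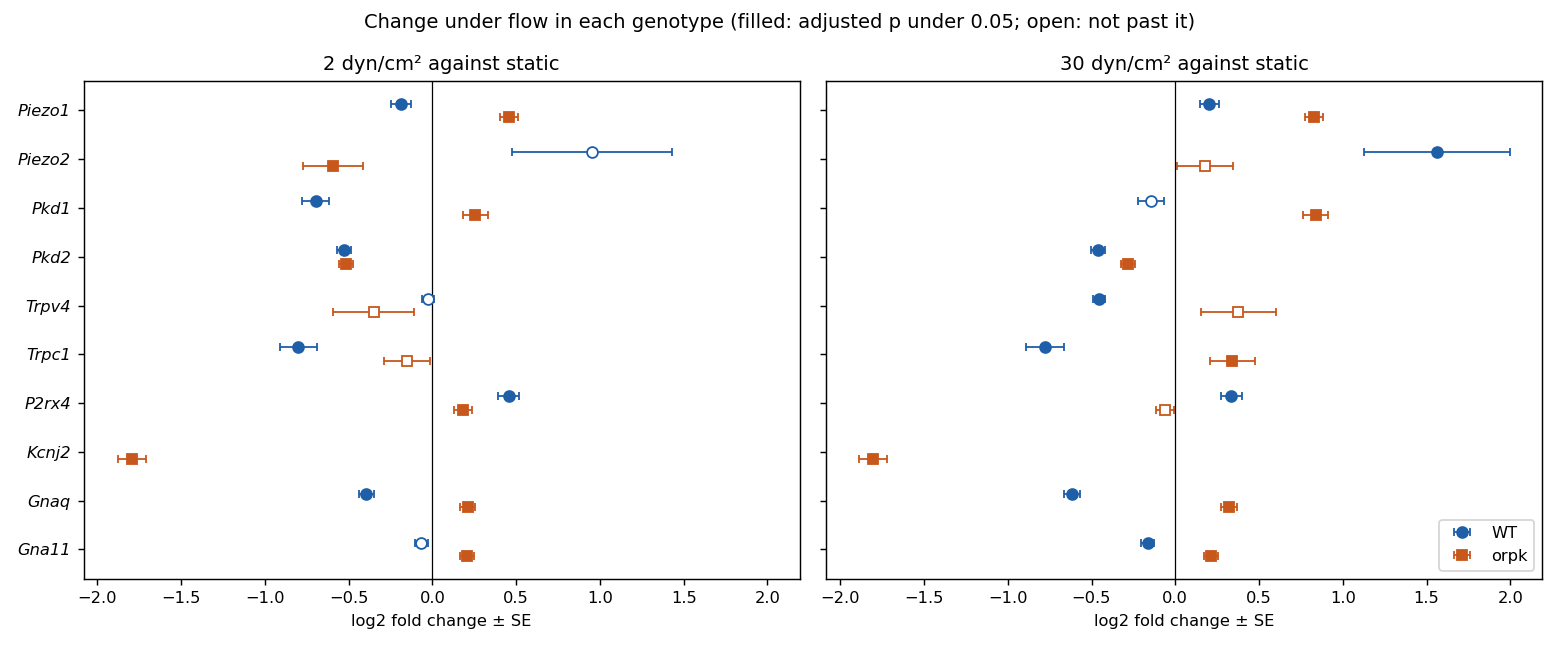
Log2 fold change ± SE of each gene at 2 dyn/cm² (left) and 30 dyn/cm² (right) against static in WT (circles) and orpk (squares); filled symbols have an adjusted p under 0.05. Gnaq is at -0.62 in WT and 0.32 in orpk at 30 dyn/cm², Pkd2 lies below 0 in both, and Kcnj2 in WT is left out for want of reads. The open WT points of Trpv4 and Gna11 at 2 dyn/cm² turn positive with library totals. That of Gna11 passes as a fall with RLE factors and without WT static replicate 3.

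Whether the response to flow differed between genotypes was tested as an interaction, the log2 change in orpk minus that in WT. At 30 dyn/cm² against static, 9 of 10 genes passed (7 higher and 2 lower in orpk; 6 and 2 with library totals), against 57.5% of all tested genes (30.6% higher, 26.9% lower). The highest was Trpc1 at 1.12 ± 0.17, followed by Pkd1 at 0.98 ± 0.11, Gnaq at 0.94 ± 0.07 (adjusted p = 1.44e-15), Trpv4 at 0.83 ± 0.23 and Piezo1 at 0.63 ± 0.08, with Piezo2 at -1.39 ± 0.47 and P2rx4 at -0.40 ± 0.08 on the other side. Gna11, at 0.38 ± 0.06, moved with Gnaq, and Pkd2, at 0.18 ± 0.06, lost its call with library totals (0.08, adjusted p = 0.214). Piezo2 lost its call without WT static replicate 3 (adjusted p = 0.0674). At 2 dyn/cm² against static, which shares the static libraries with the comparison before it, 7 passed (5 higher, 2 lower, against 52.6% of all genes, 27.1% higher and 25.4% lower). Pkd1 again had a large difference, 0.95 ± 0.11, and the values of Pkd2 (0.01 ± 0.06, adjusted p = 0.924), Trpv4 (-0.32 ± 0.24, adjusted p = 0.325) and Kcnj2 (1 or 2 reads per WT group) did not pass. From 2 to 30 dyn/cm², 4 passed, all higher in orpk (Trpv4, Trpc1, Gnaq and Pkd2; background 46.5%, with 25.0% higher and 21.5% lower), 2 with DESeq2, and 2 higher and 1 lower with library totals. Piezo1 and Pkd1 were not among them (-0.02 ± 0.08 and 0.03 ± 0.11, adjusted p = 0.883 and 0.869). Pkd1 passed without WT replicate 1 at 2 dyn/cm² (0.16, adjusted p = 0.00284).

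Levels can be compared between genes only per length, here as CPM per kb of the exons of all transcripts. Transcripts shorter than this joined length could shift the ranks. In WT cells Trpv4 ranked first of the 10 in each condition, at 68.5, 67.2 and 50.0 CPM per kb in static culture and at 2 and 30 dyn/cm². Gna11 followed at 38.0, 36.2 and 33.8, and Pkd2 at 25.1, 17.5 and 18.2. In orpk cells Piezo1 ranked first, at 30.1, 41.3 and 53.4 CPM per kb, and Pkd1 second, at 27.9, 33.3 and 49.9. Gna11 ranked next, at 22.7, 26.2 and 26.3, and Trpv4 ninth, at 0.349, 0.271 and 0.449. Trpc1 and Piezo2 were low in both genotypes, at 1.19 CPM per kb or less. The 2 WT ranks below Trpc1 were Piezo2 and Kcnj2.

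**Figure D4:**
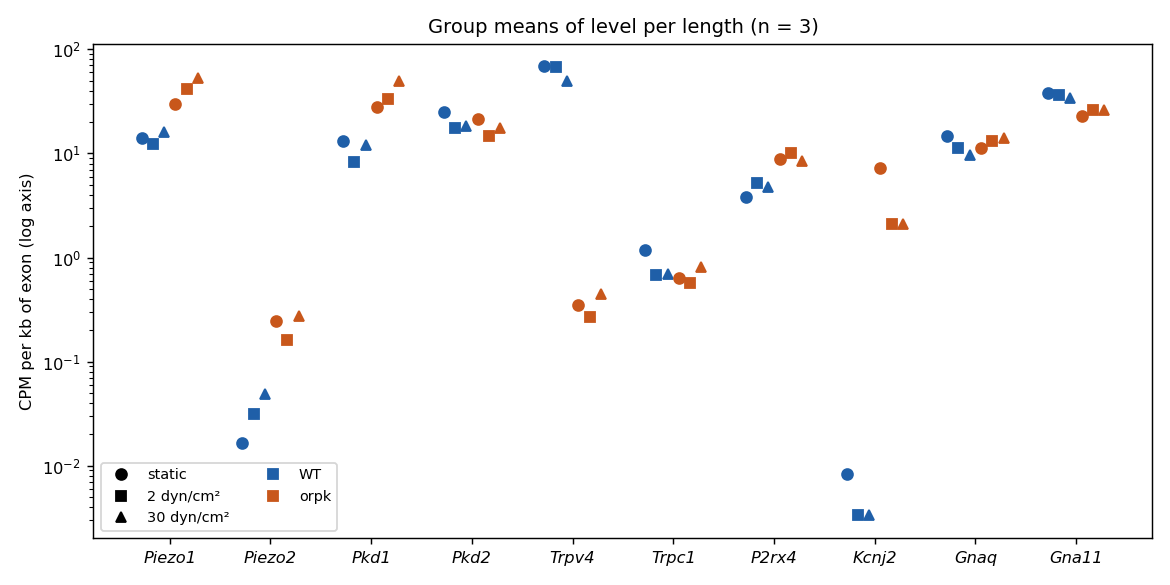
Mean CPM per kb of exon (log axis, n = 3 libraries) of each gene in each of the 6 groups; WT in blue, orpk in orange, and shear by symbol. Trpv4 is the highest gene in WT and falls below Trpc1 in orpk, where Piezo1 and Pkd1 are the highest.

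Other genes of these pathways came from lists set out with the 10 genes, and their counts are descriptions. At 30 dyn/cm² against static, 34.1% of all tested genes were higher and 32.7% lower in WT, and 36.5% and 33.3% in orpk. At 30 dyn/cm² against static in WT cells, the list of the Gq signal path, which holds phospholipase C beta isoforms, inositol trisphosphate receptors, protein kinase C isoforms and RGS proteins, had 13 of 17 tested genes lower and 1 higher. Its median log2 fold change was -0.35, against 0.004 over all 13058 genes. Itpr2, a calcium release channel of the endoplasmic reticulum, fell by 1.53 ± 0.09 on the log2 scale, and Plcb1, a phospholipase C driven by Gq, by 1.43 ± 0.11. In orpk cells 6 of the 17 rose and 9 fell (median -0.10, against 0.02 over all genes), and Plcb4 fell by 0.87 ± 0.04. The difference between genotypes passed for 12 of 17, 10 of them higher in orpk, where 57.5% of all genes passed and 30.6% were higher, with Itpr2 at 1.19 ± 0.11 and Grk2, a kinase that shuts off receptors, at 0.77 ± 0.06. In static culture 12 of 17 were higher and 5 lower in orpk, where 44.4% and 43.4% of all genes were, among them Plcb4 (2.39 ± 0.05) and Plcb1 (1.90 ± 0.07), with a median of 0.92 against 0.006 over all genes. Of the 17, 2 had at most 3 reads per group in static and 30 dyn/cm² WT cells and could hardly count as lower in orpk.

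Genes of calcium entry and stores were lower in 5 of 11 and higher in 3 in WT at 30 dyn/cm² (median -0.12), against 32.7% and 34.1% of all genes. In orpk 8 were higher and 1 lower (median 0.38), against 36.5% and 33.3%. Orai1, the pore of store-operated calcium entry, rose by 0.96 ± 0.08 in orpk. Atp2a3, a calcium pump of the endoplasmic reticulum, rose there by 3.28 ± 0.20, from 40 to 364 reads. Atp2b1, a calcium pump of the plasma membrane, fell in WT (-0.80 ± 0.04) and in orpk (-0.67 ± 0.04). The interaction passed for 8 of 11, all higher in orpk (30.6% of all genes were), including Orai1 (0.72 ± 0.11) and Orai3 (0.57 ± 0.10). Of 8 tested endothelial shear sensors outside the 10 genes, 5 fell and 0 rose in WT, with a median of -0.36, led by Cav1, the coat protein of caveolae (-0.87 ± 0.04), and Plxnd1, a plexin receptor (-0.64 ± 0.05). In orpk 6 fell and 1 rose (median -0.72), with Heg1 at -0.85 ± 0.05 and Adgrl2 at -0.72 ± 0.04. Cdh5 had no reads in WT, and Kdr had 1 read in the 9 WT libraries. Of these 8 sensors, 3 had at most 3 reads per group in static and 30 dyn/cm² WT cells, too few for a change to be seen there.

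Among 12 tested receptors that couple to Gq, 4 were higher and 1 lower in WT at 30 dyn/cm² and 3 higher and 6 lower in orpk, with medians of 0.05 and -0.38. The shares over all genes were 34.1% and 32.7% in WT and 36.5% and 33.3% in orpk, here and for the lists that follow. The WT median was 0.0051 with the genes too scarce for a fold set to no change. S1pr2, a sphingosine phosphate receptor, rose in WT (0.52 ± 0.06) and the interaction was -0.95 ± 0.07. In orpk the falls included S1pr3, from 1265 to 137 reads (-3.10 ± 0.12), and the endothelin receptor Ednra, from 965 to 170 (-2.40 ± 0.12). Of the other G alpha subunits, 5 of 12 were higher and 3 lower in WT, and 2 higher and 3 lower in orpk. Their medians were -0.02 (0.11 with the gene too scarce for a fold set to no change) and 0.0063 (0.00086). Gna13 fell in both genotypes (-0.60 ± 0.04 in WT, -0.42 ± 0.04 in orpk), as did Gnai2 (-0.46 ± 0.03 and -0.23 ± 0.04). Gnao1, common in neurons, had 3 reads over the static WT libraries and 5283 over the static orpk libraries.

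Partners of Piezo and other stretch-gated channels, 10 tested, had 4 higher and 2 lower in WT at 30 dyn/cm² (median 0.23) and 4 and 4 in orpk (median -0.31, or -0.11 with scarce genes set to their bound or to no change). Tmem63a, a stretch-gated channel, fell in WT (-0.74 ± 0.05) and in orpk (-0.84 ± 0.05). Mdfic, an auxiliary subunit of Piezo channels, had an interaction of 0.49 ± 0.06. In the polycystin family 2 of 3 tested genes fell in WT and 0 of 3 passed in orpk (medians -0.83 and 0.18). Pkhd1, whose product fibrocystin sits on the cilium and is mutated in recessive polycystic kidney disease, had 9219 reads over the static WT libraries and 8 over the static orpk libraries (log2 -9.98 ± 0.28). Other Trp channels numbered 3 higher and 2 lower of 13 in WT and 3 and 4 in orpk (medians 0.00 and -0.06), where Mcoln1, a lysosomal calcium channel, rose by 0.35 ± 0.04. Other purinergic receptors numbered 4 higher and 0 lower of 7 in WT and 3 and 2 in orpk (medians 0.67 and -0.37), and P2rx7 rose in WT (1.10 ± 0.12). Of 6 tested potassium channels of vessels, 1 was higher and 2 lower in WT, and 1 higher and 1 lower in orpk (medians -0.19 and -0.53). Kcnn4, a calcium-activated potassium channel of endothelium, rose in WT (0.80 ± 0.13), with an interaction of -0.87 ± 0.15.

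**Figure D5:**
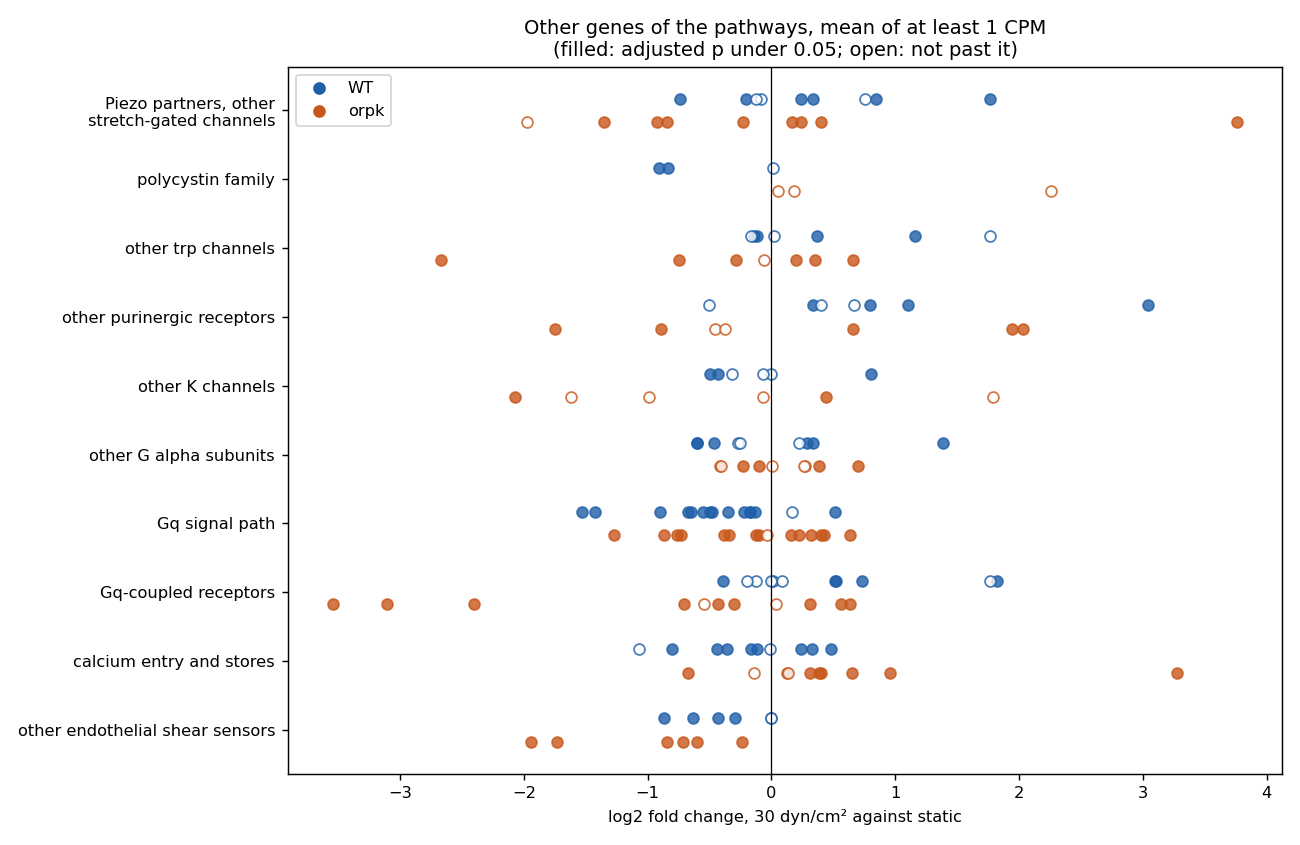
Log2 fold change at 30 dyn/cm² against static for genes of 10 lists with a mean of at least 1 CPM, in WT (blue) and orpk (orange); filled points have an adjusted p under 0.05. Most WT points of the Gq signal path lie below 0, and Itpr2 (-1.53) and Plcb1 (-1.43) are the lowest of them.

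The genes whose log2 level followed each of the 10 most closely over the 18 libraries were sought among 10434 genes with a mean of at least 5 CPM. These correlations are descriptions, and they share the genotype split that separates all libraries. Trpv4 was followed most closely by Cdh16, a kidney cadherin, with Pearson's r of 0.998, then by Adora1 and Sim2. Kcnj2 was followed by Ak4, an adenylate kinase of mitochondria, at 0.998, and Pkd1 by Cald1, Vcl and Tln2 at 0.992, 0.990 and 0.990, which encode the actin-binding and adhesion proteins caldesmon, vinculin and talin 2. Piezo1 had its closest match in Rhbdf1 (0.995), P2rx4 in Emc2 (0.994), Gna11 in Rtn3 (0.992), Pkd2 in Narf (0.983) and Piezo2 in B3glct (0.982). Gnaq and Trpc1 had looser matches in Zmynd11 (0.955) and Csnk1g2 (0.928).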

How the data were processed

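Poly(A) RNA of 18 libraries was sequenced as single 50-nt reads from a stranded kit, per the labels' protocols. The deposited values are read counts per gene, as whole numbers. The authors used CASAVA 1.8.2, STAR 2.4, featureCounts 1.4.6 and the build GRCm38, per the submitters' processing notes, and the strand setting of the counting is not given in the sources used here. Of 21647 genes listed, 21583 have a symbol in GENCODE M21 (GRCm38), which gave locations and exon lengths. From the counts, genes kept by filterByExpr (13058) were scaled by TMM and fitted with edgeR 4.0.16 (R 4.3.3) as 6 group means in a robust quasi-likelihood model with 12 residual degrees of freedom. Contrasts were 6 of shear, 3 of genotype and 3 interactions, and p-values came from the F test of that model in edgeR, adjusted over all tested genes after Benjamini and Hochberg and called at 0.05. CPM are TMM-normalised, and SE is the size of a log2 fold change over the root of F. For Kcnj2 and Trpv4, the fold differences between genotypes in the text are ratios of summed reads with an exact 95% interval. A p-value here measures only how far these libraries spread, and that spread may be technical. Alternatives were DESeq2 1.42.0, RLE factors, library totals as the scaling, a fit without the filter, a fit of only the compared groups, a replicate block and each library left out in turn.

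The members and lists were chosen with earlier results of these data known. Named were the 10 members, up to 4 genes per pathway list and comparison with the largest change past the threshold and a mean of at least 1 CPM (the text gives a selection; it and Kdr, Cdh5, Ctu2 and Tsc2 were picked with their values known), and the genes most correlated with each member.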

Additional observations from a re-analysis of the deposited data

Results flagged for a closer look

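The change under flow differed between genotypes, by the interaction test in edgeR, for these genes; values are the log2 change in orpk minus that in WT, with SE and p adjusted over all genes. At 2 dyn/cm² against static they were Piezo1 (0.65 ± 0.08, adjusted p = 1.89e-07), Pkd1 (0.95 ± 0.11, adjusted p = 3.20e-06), Trpc1 (0.65 ± 0.18, adjusted p = 0.00214), Gnaq (0.60 ± 0.07, adjusted p = 3.05e-10) and Gna11 (0.27 ± 0.05, adjusted p = 4.59e-05), all higher in orpk. Piezo2 (-1.55 ± 0.51, adjusted p = 0.00998) and P2rx4 (-0.27 ± 0.08, adjusted p = 0.00438) were lower. The Piezo2 value was -1.27 without WT static replicate 3 (adjusted p = 0.0541) and -1.30 without WT replicate 3 at 2 dyn/cm² (adjusted p = 0.0601). At 30 dyn/cm² against static they were Piezo1 (0.63), Pkd1 (0.98), Pkd2 (0.18), Trpv4 (0.83), Trpc1 (1.12), Gnaq (0.94) and Gna11 (0.38), with Piezo2 (-1.39) and P2rx4 (-0.40) lower. From 2 to 30 dyn/cm² they were Pkd2 (0.17 ± 0.06, adjusted p = 0.0148), Trpv4 (1.15 ± 0.23, adjusted p = 6.28e-05), Trpc1 (0.47 ± 0.18, adjusted p = 0.0307) and Gnaq (0.33 ± 0.07, adjusted p = 5.87e-05). The Trpc1 value of that step was lost with DESeq2 and library totals and without orpk replicate 1 at 2 or 30 dyn/cm² or WT replicate 1 at 2 or replicate 2 at 30 dyn/cm² (adjusted p of 0.0525 to 0.135). The Pkd2 value was lost with DESeq2 and library totals, and without orpk replicate 3 or WT replicate 2 at 2 dyn/cm² (adjusted p of 0.0501 to 0.265). For Piezo1, Pkd1, Gnaq and Gna11 the orpk value at 30 dyn/cm² lay above 0 (0.83, 0.84, 0.32 and 0.21), and the WT values were 0.20, -0.14, -0.62 and -0.17.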

How the results depend on the processing

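Of 120 values (10 genes in 12 comparisons), 89 passed the threshold, and 77 of these kept direction and call in every alternative. Of 1616 alternative values 1534 kept both, 34 lost the call, 12 gained it and 36 changed sign. The number of genes past the threshold moved by over 1.5 times in 1 case, the interaction from 2 to 30 dyn/cm² with DESeq2 (2 against 4). Library totals changed the sign of Gnaq in orpk from 2 to 30 dyn/cm² (-0.0033) and of Gnaq between genotypes at 2 dyn/cm² (-0.0017), both called otherwise. Among values that were not called, they gave Trpv4 0.082 and Gna11 0.043 in WT at 2 dyn/cm², Trpc1 -0.00046 and Kcnj2 -0.0039 in WT from 2 to 30 dyn/cm², Gna11 -0.11 in orpk for that step, Trpc1 -0.094 between genotypes at 30 dyn/cm² and Pkd1 -0.064 for the last interaction. The orpk step of Gna11 was -0.011 with RLE factors and with DESeq2 and -0.0029 with the groups alone. Leaving out 1 library changed the sign of values that did not pass, with these ranges: Gna11 -0.012 to 0.027 and Kcnj2 -0.12 to 0.082 in orpk from 2 to 30 dyn/cm², Trpc1 -0.021 to 0.060 and Kcnj2 -1.74 to 1.75 in WT for that step, and in the interaction of that step Piezo1 -0.075 to 0.085, Piezo2 -0.083 to 0.43, Pkd1 -0.066 to 0.16 and Kcnj2 -1.76 to 1.73. In the other interactions these were Pkd2 -0.026 to 0.054 and Kcnj2 -1.32 to 0.87 at 2 dyn/cm² and Kcnj2 -1.34 to 0.86 at 30 dyn/cm². Library totals moved the median of all genes by -0.215, -0.222 and -0.314 between genotypes (static, 2 and 30 dyn/cm²), 0.11 in WT at 2 dyn/cm² and -0.115 in orpk from 2 to 30 dyn/cm². They moved the share of calls that were higher from 51.8% to 65.9% (WT at 2 dyn/cm²), 49.8% to 64.3% (orpk at 2), 50.5% to 34.4% (orpk, 2 to 30), 51.0% to 40.6% and 51.6% to 38.5% (genotypes at 2 and 30), 53.2% to 42.8% (interaction at 30) and 53.7% to 38.9% (interaction, 2 to 30). The cause was not tested. Deviations of same-numbered libraries correlated at -0.113 to 0.165, which cannot decide whether these libraries shared more than a number. The replicate block changed none of the 120 calls (6 and 8 genes in WT at 2 and 30 dyn/cm², as without it). Depth limits Kcnj2 in WT, Piezo2 in WT and Trpv4 in orpk, with at most 1, 17 and 31 reads per library.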
